A study of Rattus norvegicus with 15 samples.

Results

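The genes described are 7 that encode channels and membrane proteins sensitive to stretch. They are the channel genes Piezo1, Piezo2 and Trpv4, the polycystin genes Pkd1 and Pkd2, and the caveolin genes Cav1 and Cav2. They were chosen by gene name, and each matched 1 of the 33717 genes in the deposited count table. A filter on low counts left 14147 genes for testing and kept 6 of the 7. Piezo2 did not pass it.

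RNA-seq was run on total RNA of primary chondrocytes, the cells that make cartilage, from the rat temporomandibular joint, which is the jaw joint. The 15 libraries formed 5 groups of 3. The groups were a control, mechanical stress, a control siRNA, an siRNA against Ddx5, and the Ddx5 siRNA with mechanical stress. An siRNA is a small RNA that directs the cell to destroy transcripts matching it, and Ddx5 encodes an RNA helicase of the DEAD-box family. The control label names no agent; since a control siRNA group exists as well, the control was read as having no siRNA. The sources used here do not give how the cells were stressed or for how long, how the siRNA was delivered, the age and strain of the animals, or whether libraries came from separate animals or cultures. The p-values therefore measure the spread between libraries, which may be technical. No group had the control siRNA together with stress.

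Piezo1 and Piezo2 are cation channels that membrane tension opens directly, and calcium entering through them is the first step of several responses to load. Trpv4 is a calcium-permeable channel of the TRP family that responds to osmotic and mechanical stimuli and is well known in cartilage. Polycystin-1 and polycystin-2 form a complex on the primary cilium, the single sensory projection that chondrocytes carry. Caveolae are small cup-shaped folds of the cell membrane that flatten when the membrane is pulled, and caveolin-1 is the main protein of their coat. Caveolin-2 needs caveolin-1 to reach the cell surface.

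Depth was even, with 14309005 to 16219775 counts per library, so that 3 counts equalled 0.185 to 0.21 CPM (counts scaled to the library size, here after TMM scaling). Ddx5 checks the siRNA labels: it stood at 58.8% of the control siRNA level in the Ddx5 siRNA group (edgeR adjusted p = 0.0226), and at 50.1% of the stress level in the Ddx5 siRNA plus stress group (edgeR adjusted p = 0.0143). In overall expression, replicate 1 of the Ddx5 siRNA plus stress group and replicate 1 of the Ddx5 siRNA group stood farthest from their own groups, with mean correlations of 0.959 and 0.967 in log2 CPM. Replicate 1 of the control had the lowest values of long transcripts, with a median of -0.29 on the log2 scale for genes over 8 kb. The other libraries lay between -0.15 and 0.21 by that measure. Of the defining cartilage markers, Acan was present at 73.4 to 367 CPM, while Col2a1 reached no more than 4.49 CPM. Sox9, the transcription factor of cartilage identity, was at 8.95 to 27.8 CPM, and Cnmd had no count in 10 of the 15 libraries. Among fibroblast markers, Col1a1 was at 29909 to 72887 CPM. Acan and Sox9 were thus detected, while the type II collagen that defines cartilage was nearly absent. Of the 11 cartilage markers in the table, 4 had a mean under 1 CPM, against 0 of the 7 fibroblast markers. The cartilage list as a whole therefore did not settle the labelled cell type. In bulk RNA, fewer cells of a type and less RNA per cell cannot be told apart.

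The 7 genes covered a wide range of levels. Levels of different genes were compared per length, as the deposited FPKM (read counts divided by gene length and scaled by library). Over the 15 libraries, mean FPKM was 106 for Cav1, 90.4 for Piezo1, 51.1 for Pkd2, 30.9 for Pkd1, 4.02 for Cav2, 0.959 for Trpv4 and 0.0505 for Piezo2. Cav1 and Piezo1 thus lay above 96.4% and 95.6% of the 21649 genes with a count, and Trpv4 above 43.1%. Cav1 and Piezo1 were neighbours whose order was not fixed, since Cav1 was above Piezo1 in 9 of 15 libraries. Piezo1 was above Pkd2 in 14 of 15 libraries. Every later neighbour in the order was separated in all 15 libraries. Per length, Cav1 and Piezo1 were the most abundant genes of the 7, and they were also those that passed the test under stress. The test rests on counts, which order the genes otherwise. Summed counts were higher for Pkd1 than for Cav1 in the control (17676 against 17235) and under stress (20836 against 11213). Pkd1 did not pass.

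**Figure D1:**
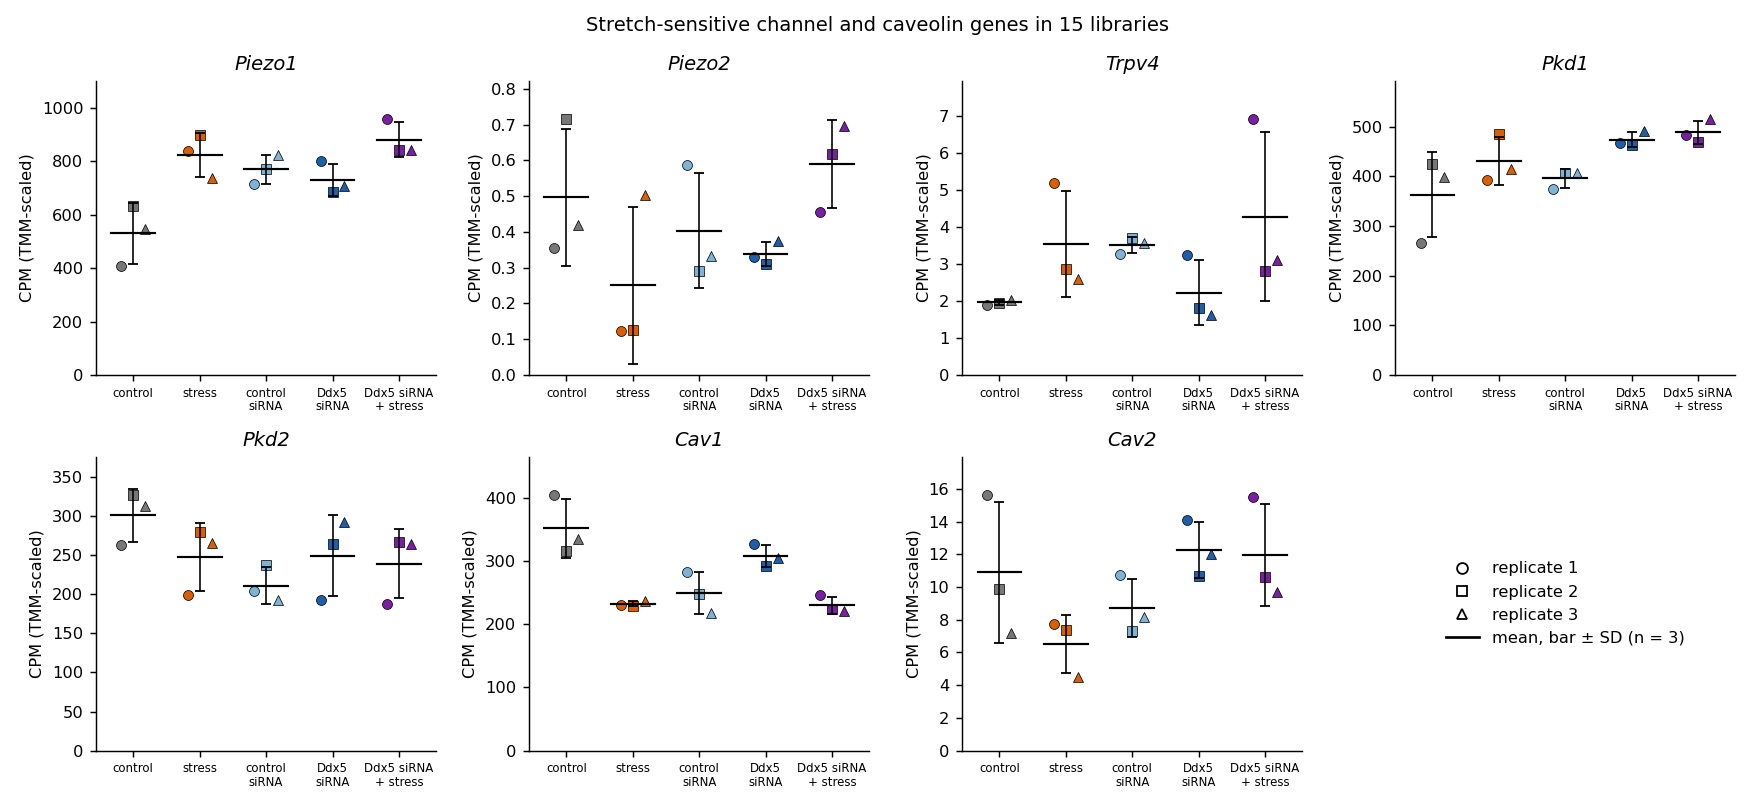
Level of each of the 7 genes in every library, in CPM on a separate axis for each gene, with the libraries placed in their 5 groups. Every control library is below every other library for Piezo1. For Cav1 the control libraries, at 315 to 404 CPM, overlap the Ddx5 siRNA group, at 292 to 327 CPM, and lie above the other groups.

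Among the tension-gated channels, Piezo1 (ENSRNOG00000056786, chromosome 19, 55305496 to 55367353, minus strand, in the deposited coordinates) was the abundant one. Its level was 408, 634 and 548 CPM in the control libraries, in the order of their replicate numbers, and 839, 899 and 736 CPM under stress. Every stressed library was above every control library. The share of all genes whose groups separate in this way was not counted, here or in the comparisons below. Full separation of 3 libraries from 3 has an exact permutation p of no less than 0.10. Piezo1 rose by 0.64 on the log2 scale (SE 0.14, n = 3 against 3, edgeR adjusted p = 0.0349), a factor of 1.56. Over all genes tested, 1.41% were called in this comparison, where a call is an adjusted p under 0.05. The call was lost when control replicate 1 (edgeR adjusted p = 0.116), control replicate 3 (0.0815), stress replicate 1 (0.133) or stress replicate 2 (0.122) was left out, and with only the groups compared in the fit (0.0993). Piezo1 spans 8203 bases of exon, and control replicate 1, the library with the lowest long transcripts, had its lowest value. With each library's trend on gene length removed, an alternative added after the data were seen, Piezo1 rose by 0.59 (edgeR adjusted p = 0.0173), while 1.88% of all genes were called.

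In cells with the Ddx5 siRNA, Piezo1 stood at 799, 684 and 706 CPM without stress and at 957, 844 and 842 CPM with it. The groups again did not overlap, with a difference of 0.27 (SE 0.14, edgeR adjusted p = 0.501) that did not pass the test, where 1.19% of all genes were called. That fit ignored the replicate numbers. With the replicate number as a block, the difference did not pass with all libraries in the fit (edgeR adjusted p = 0.429). It passed with only these groups in the fit (0.00922), where 7.3% of all genes were called. Averaged over both backgrounds, without and with the Ddx5 siRNA, Piezo1 rose by 0.45 with stress (SE 0.098, 12 libraries, edgeR adjusted p = 0.0132), against a share of 5.56% called. Piezo1 kept this call under each of the 21 alternatives that were run, at adjusted p from 0.000586 to 0.0449. With the gene-length trend removed it was 0.39 (adjusted p = 0.0105), with 6.43% of all genes called. The 2 stress effects on Piezo1 differed by -0.36 (SE 0.20, edgeR adjusted p = 0.999). No gene passed that test of the difference in edgeR (0%), which had 441 genes at an unadjusted p under 0.05, or 3.12%; DESeq2 called 4.

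The control siRNA alone was followed by a similar change in Piezo1. Its 3 libraries stood at 716, 773 and 824 CPM, all above the control libraries. Piezo1 rose by 0.54 over the control (SE 0.14, edgeR adjusted p = 0.0436), in a comparison with 3.87% of genes called. This comparison and that of stress share the same control libraries, so the similarity of their values is no independent result. The call was lost without control replicate 1 (0.117), control replicate 3 (0.113), or any of control siRNA replicates 1 (0.0932), 2 (0.121) and 3 (0.156). With the length trend removed it was 0.58 (adjusted p = 0.0121), with 4.3% called. In the same comparison Col1a1 rose by 0.91 (edgeR adjusted p = 0.022), as the only 1 of 7 fibroblast markers called. The summed fibroblast markers ran from 71335 to 86215 CPM against 37540 to 43340 in the control, and Col1a1 made up most of this sum. On average over the 15 libraries Col1a1 was at 48214 CPM, while the others ran from 4.66 CPM for Lum to 5039 CPM for Col3a1. The part of these markers in the Piezo1 result was not tested.

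Piezo2, the channel of touch-sensing neurons and Merkel cells, was near the limit of detection. Its counts were 6, 11 and 7 in the control libraries and 2, 2 and 8 under stress. They were 9, 4 and 5 with the control siRNA. In the Ddx5 siRNA group they were 5, 5 and 6, against 7, 9 and 11 with stress added. Without the filter on low counts, Piezo2 differed by -0.97 for stress against control (edgeR adjusted p = 0.674), and changes of Piezo2 were not detectable at this depth. The Merkel cell factor Atoh1 had no count in any library.

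Trpv4 (chromosome 12, 47698947 to 47737902, plus strand) was expressed at a few CPM. Its level was 1.90, 1.95 and 2.04 CPM in the control and 5.18, 2.86 and 2.58 CPM under stress. These groups did not overlap, and the share of all genes whose groups did not was not counted. With the Ddx5 siRNA it was 3.24, 1.80 and 1.62 CPM, and 6.91, 2.81 and 3.10 CPM when stress was added, and these groups overlapped. Stressed libraries were higher in all 6 pairs with the same replicate number, but how many of all genes did so was not counted. Replicate 1 of each stressed group carried the highest value, and replicate 1 of the Ddx5 siRNA group lay above the other libraries of that group. The log2 difference was 0.85 for stress against control (SE 0.38, edgeR adjusted p = 0.306) and 0.94 in cells with the Ddx5 siRNA (SE 0.38, adjusted p = 0.338). Neither passed, and the first ran from 0.47 to 1.03 with a library left out. The mean of both, 0.90 (SE 0.27, edgeR adjusted p = 0.0643), missed the threshold. Of the 21 alternatives run, 15 also left it short of the threshold. It passed when either of 2 of the 12 libraries was left out, with adjusted p from 0.0269 to 0.175 over these 12 fits. A fit with the replicate number as a block put the mean at 0.84 with an adjusted p of 0.0317, where 7.97% of all genes were called. DESeq2 gave an adjusted p of 0.0286 and called 1223 genes for that mean, where edgeR called 786. The control siRNA libraries, at 3.27, 3.70 and 3.58 CPM, all lay above the control libraries, with a log2 difference of 0.84 that did not pass (edgeR adjusted p = 0.231).

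**Figure D2:**
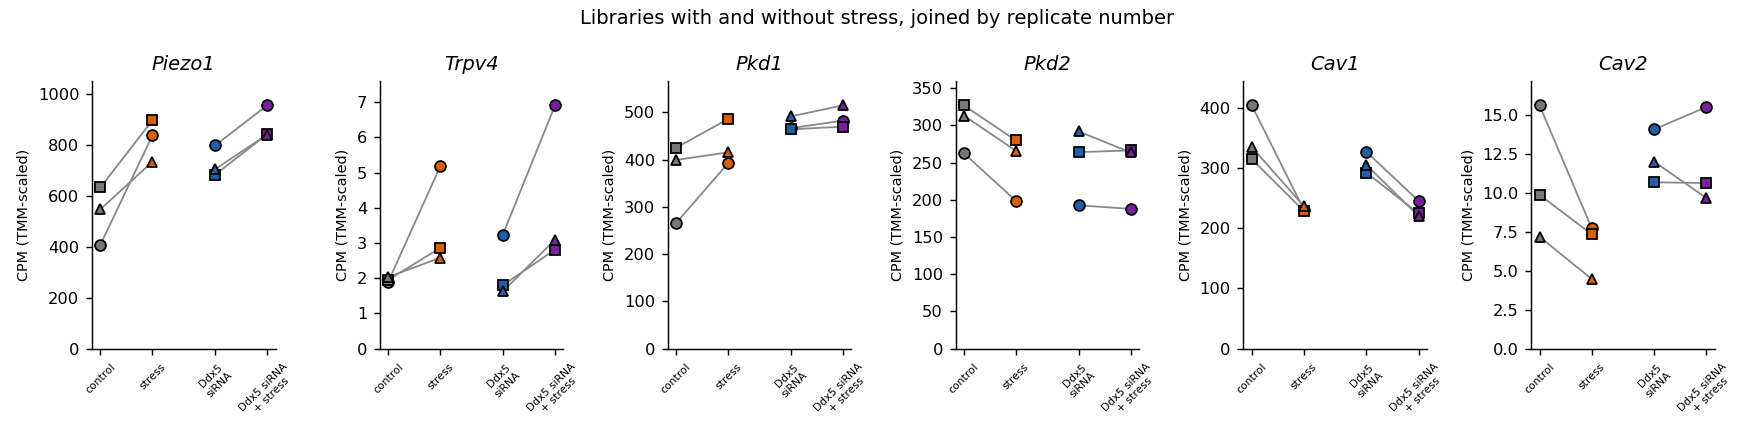
Level in CPM of the 6 tested genes in unstressed and stressed libraries, with a line joining those of the same replicate number. There are 3 pairs without siRNA and 3 pairs with the Ddx5 siRNA. The stressed library is higher in all 6 pairs for Piezo1, Trpv4 and Pkd1, and lower in all 6 for Cav1. For Pkd1 the log2 difference is as small as 0.018. How many of all genes keep 1 direction in all 6 pairs was not counted.

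Neither polycystin gene passed the test in any comparison of the main fit, which held all 15 libraries and no replicate block. Pkd1 (chromosome 10, 13915214 to 13962008, plus strand), which encodes the large receptor-like subunit, was at 265, 425 and 399 CPM in the control and 393, 486 and 415 CPM under stress. The ranges overlapped, and the difference of 0.25 (SE 0.14, edgeR adjusted p = 0.424) did not pass. Its lowest value of all 15 libraries was that of control replicate 1; with the gene-length trend removed the difference was 0.15. In cells with the Ddx5 siRNA, Pkd1 was at 466, 464 and 491 CPM, and at 482, 469.7 and 515 CPM with stress added. The control siRNA group had 374, 407 and 406 CPM, all below the Ddx5 siRNA group, but the difference of 0.26 did not pass (edgeR adjusted p = 0.394).

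Pkd2 (chromosome 14, 6602004 to 6645257, minus strand), which encodes the channel subunit, was at 262, 327 and 313 CPM in the control and 199, 279.7 and 266 CPM under stress. The difference of -0.28 (SE 0.18, edgeR adjusted p = 0.483) did not pass. The Ddx5 siRNA libraries had 193, 264 and 292 CPM, and those with stress added 188, 266 and 264 CPM. These groups overlapped. The control siRNA libraries, at 204, 237 and 192 CPM, were all below the control, with a difference of -0.51 (SE 0.18, edgeR adjusted p = 0.12). This did not pass, although it was close in size to the decrease called for Cav1 in the same comparison. With only the groups compared in the fit it was -0.52 and passed (edgeR adjusted p = 0.0143). That fit called 1394 genes, where the main fit called 547.

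The caveolin genes lie next to each other on chromosome 4, both on the plus strand, with 16484 bases between them in the deposited coordinates (Cav2 at 44573264 to 44580638, Cav1 at 44597123 to 44630200). Because these neighbours differ widely in level and their ratio is followed across the groups, their start regions are shown. Each runs from 250 bases before to 50 bases after a transcription start, from RefSeq on the GRCr8 build, plus strand, 5′ to 3′. Capitals mark matches on either strand to GGGCGG, to the pattern TGANTCA and to the pattern TATAAA, none of which overlapped another.
Cav2, chr4:46582431-46582730: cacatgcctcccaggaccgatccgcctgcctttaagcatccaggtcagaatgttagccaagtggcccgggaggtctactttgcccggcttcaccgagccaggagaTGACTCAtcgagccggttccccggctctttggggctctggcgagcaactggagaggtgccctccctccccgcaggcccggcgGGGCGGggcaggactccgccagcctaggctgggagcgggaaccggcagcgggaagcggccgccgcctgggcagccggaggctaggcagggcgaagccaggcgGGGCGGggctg
Cav1, chr4:46606288-46606587: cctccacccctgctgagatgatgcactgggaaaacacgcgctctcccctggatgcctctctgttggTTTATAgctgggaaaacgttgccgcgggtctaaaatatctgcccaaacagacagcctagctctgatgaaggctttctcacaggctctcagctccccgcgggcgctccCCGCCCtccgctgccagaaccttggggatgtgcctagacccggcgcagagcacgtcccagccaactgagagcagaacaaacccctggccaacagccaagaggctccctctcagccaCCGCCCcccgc
Both windows were rich in GC, at 70.3% for Cav2 and 61.7% for Cav1 against a median of 51.7% over 33469 promoters. Cav2 had 24 CpG sites and Cav1 15, where the median was 7. GGGCGG, the core of the GC box, occurred 2 times in each window and was found in 33.1% of all promoters. TGANTCA, the pattern bound by AP-1 factors, occurred once in the Cav2 window and in 7.33% of all promoters. TATAAA was found once in the Cav1 window, on the minus strand, and in 14.2% of all. A RefSeq window at another Cav1 start held none of the 3 motifs. A match is a description of the letters and not a site of binding.

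Cav1 was lower under stress in both backgrounds. Its level was 404, 315 and 335 CPM in the control and 231, 229 and 237 CPM under stress. All 3 stressed libraries lay close together and below every control library. Cav1 fell by 0.60 (SE 0.11, n = 3 against 3, edgeR adjusted p = 0.0125), to 66.1% of the control. Leaving out control replicate 1 ended the call (edgeR adjusted p = 0.0622), as did leaving out stress replicate 1 (0.0648) or stress replicate 2 (0.0622). With the gene-length trend removed the decrease was -0.61 (adjusted p = 0.0109). In cells with the Ddx5 siRNA, Cav1 was at 327, 292 and 305 CPM, and at 245, 224 and 220.1 CPM with stress. These groups also did not overlap, and the difference was -0.42 (SE 0.11, edgeR adjusted p = 0.0884). It passed with the replicate block (adjusted p = 0.024, with 1.77% of all genes called) and in DESeq2 (0.0126). DESeq2 called 369 genes there, where edgeR called 169. The mean of both stress effects was -0.51 for Cav1 (SE 0.078, edgeR adjusted p = 0.00108), a call kept under each of the 21 alternatives run, at adjusted p from 6.93e-08 to 0.00436. The difference between both stress effects on Cav1, 0.18 (SE 0.16), did not pass.

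In both stress comparisons, libraries with the same replicate number deviated from their groups together, so the numbers were taken as pairs. With the block and all libraries in the fit, Piezo1 and Cav1 kept their calls for stress against control (adjusted p = 0.0245 and 0.00273), where 2.59% of all genes were called. With the block and only the groups compared in the fit, 4 of the 6 tested genes passed for stress against control, with Pkd2 at -0.29 (adjusted p = 0.0114) and Cav2 at -0.71 (0.0176) added. That fit called 12.5% of all genes. In cells with the Ddx5 siRNA the same fit called Piezo1 (0.27, adjusted p = 0.00922) and Cav1 (-0.43, 0.000664), with 7.3% of all genes called.

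The control siRNA was again followed by the same direction of change. Cav1 stood at 283, 247 and 217 CPM there and fell by 0.50 from the control (SE 0.11, edgeR adjusted p = 0.0234). That comparison used the same control libraries as the one with stress. The call was lost without control replicate 1 (0.0826) or 3 (0.0577) and without control siRNA replicate 2 (0.087) or 3 (0.114). Cell types rich in caveolae were looked for through their markers. The endothelial genes Cdh5 and Cldn5 had no count in any library. The summed endothelial list was 20.4 to 23.5 CPM in the control, 17.3 to 23.4 CPM under stress and 32.5 to 38.0 CPM with the control siRNA, and Egfl7 made up most of it. The adipocyte list summed to at most 2.54 CPM. The skeletal muscle list moved in the same direction as Cav1: it summed to 12.8 to 17.7 CPM in the control, 6.93 to 9.57 CPM under stress and 8.88 to 11.3 CPM with the control siRNA. With the Ddx5 siRNA it summed to 16.5 to 30.9 CPM, and to 9.19 to 15.1 CPM with stress added. Of its 4 genes in the table, Myh1, a muscle myosin heavy chain, fell by 0.81 with stress (edgeR adjusted p = 0.0172), by 0.83 with stress in cells with the Ddx5 siRNA (0.0143) and by 0.86 with the control siRNA (0.00828), while Myog, the factor of muscle differentiation, had no count in any library. Against the control siRNA, Myh1 rose by 1.14 with the Ddx5 siRNA (edgeR adjusted p = 0.0176). The part of these transcripts in the Cav1 result was not tested. The smooth muscle list, led by Acta2, summed to 1272 to 2539 CPM in the control, 1047 to 1962 CPM under stress and 2957 to 3460 CPM with the control siRNA; its part in the Cav1 result was not tested. Of the cartilage list, Sox9 fell by 0.92 with stress (edgeR adjusted p = 0.0485). It fell by 0.94 with stress in cells with the Ddx5 siRNA (0.0455) and by 0.93 in the mean of both (0.00184). Prg4, at a mean of 1.36 CPM over the 15 libraries, fell by 1.91 with the control siRNA (0.0427). The part of Sox9 and Prg4 was not tested either.

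**Figure D3:**
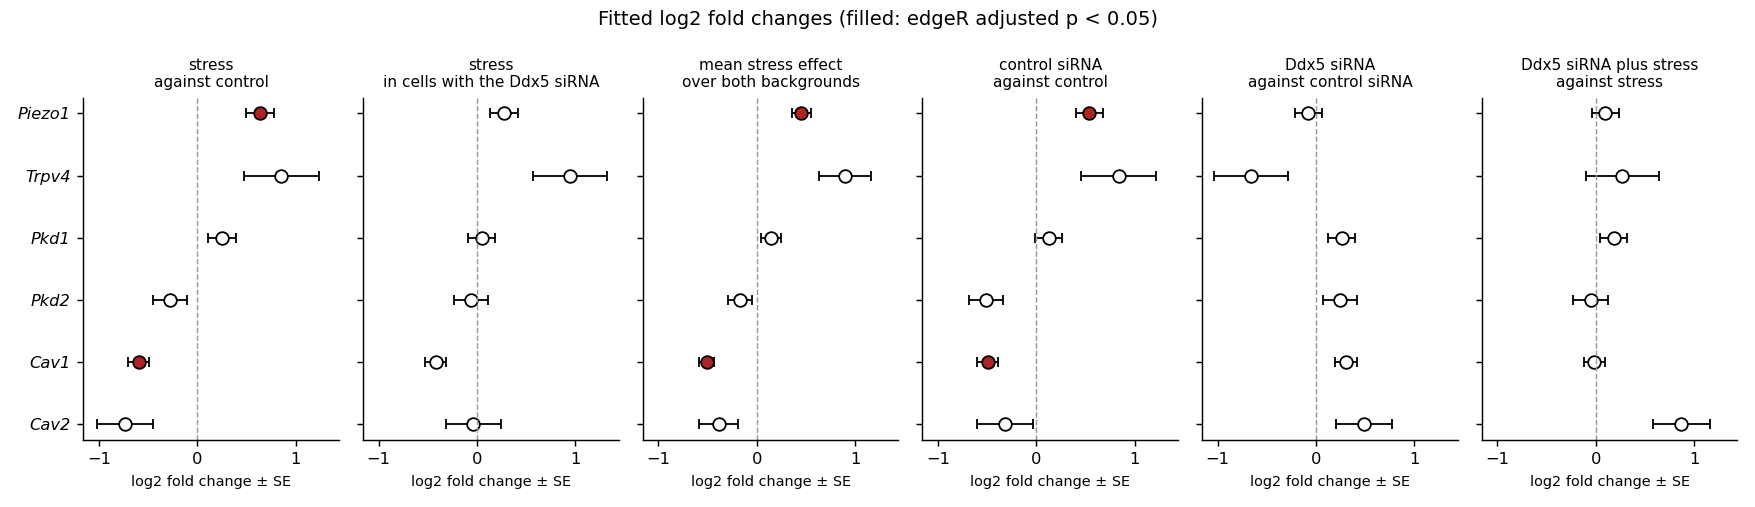
Log2 fold change of the 6 tested genes in each comparison, with bars of 1 SE from the edgeR fit without a replicate block. Piezo1 at 0.64 and Cav1 at -0.60 pass for stress against control, and none of the 6 passes for the Ddx5 siRNA.

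Piezo1 and Cav1 moved in opposite directions with stress, and Piezo1 was above Cav1 per length in some libraries. Per length, the ratio of Piezo1 to Cav1 was 0.315 to 0.628 in the control libraries and 0.970 to 1.23 under stress. It was 0.722 to 0.763 with the Ddx5 siRNA and 1.17 to 1.22 with stress added, and 0.790 to 1.18 with the control siRNA. The ratio was chosen after the values were seen, and no test was made of it. All 3 control libraries lay below every other library. Stress replicate 3, at 0.970, still had Cav1 above Piezo1.

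**Figure D4:**
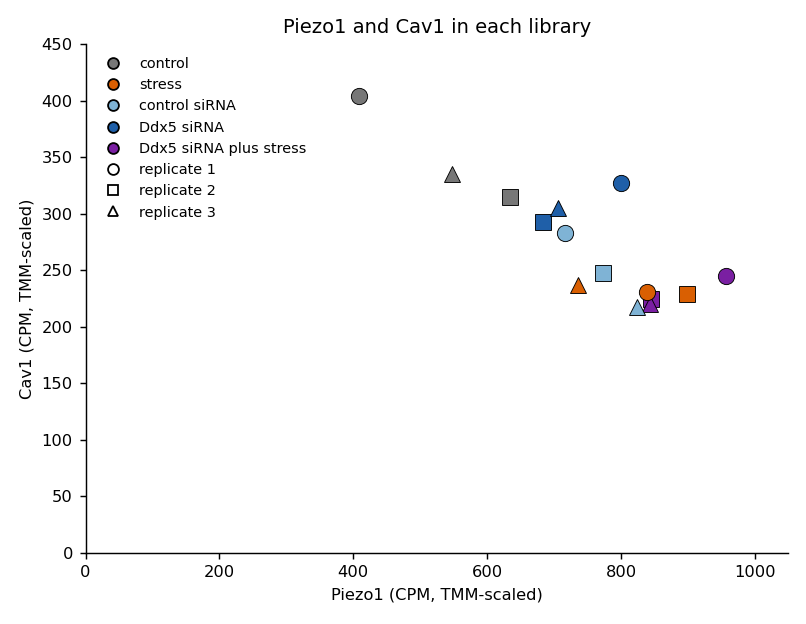
Piezo1 against Cav1 in each of the 15 libraries, both in CPM and not divided by length. The control libraries lie at low Piezo1 and high Cav1. Once divided by length, the ratio of Piezo1 to Cav1 is at most 0.628 in the control libraries. It is at least 1.17 in the Ddx5 siRNA plus stress libraries.

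Cav2, far below Cav1 in level, was at 15.6, 9.88 and 7.19 CPM in the control and 7.74, 7.35 and 4.47 CPM under stress. The groups overlapped, and the difference of -0.74 (SE 0.29, edgeR adjusted p = 0.229) did not pass. It ran from -0.97 to -0.38 with a library left out. With the Ddx5 siRNA it was at 14.1, 10.7 and 12.0 CPM, and at 15.5, 10.6 and 9.67 CPM with stress, a difference of -0.04 (SE 0.28). The control siRNA libraries had 10.7, 7.33 and 8.15 CPM. All 3 libraries with the Ddx5 siRNA and stress lay above all 3 with stress, and this difference of 0.87 (SE 0.29) had an edgeR adjusted p of 0.287.

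The ratio of Cav1 to Cav2 within a library needs no scaling between libraries. Per length it was 25.1 to 45.1 in the control, 28.9 to 51.1 under stress, 25.6 to 32.6 with the control siRNA, 22.5 to 26.5 with the Ddx5 siRNA and 15.3 to 22.1 with the Ddx5 siRNA and stress. The last group lay below all the others. Against stress the log2 ratio differed by -0.89 (SE 0.31), and against the Ddx5 siRNA by -0.36 (SE 0.17). Each had a two-sided exact permutation p of 0.10, the smallest that 3 libraries against 3 can give, and 0.33 after adjustment over 10 such tests. For Piezo1 to Piezo2, whose counts are low, the log2 ratio was higher by 1.77 under stress than in the control (SE 0.70, exact permutation p = 0.10, adjusted 0.33). That value came mainly from stress replicates 1 and 2, with 2 Piezo2 counts each: the log2 ratio was 12.4 and 12.5 there and 10.4 in stress replicate 3, against 9.72 to 10.2 in the control. In cells with the Ddx5 siRNA the stress difference had the opposite sign, -0.46 (SE 0.25, exact permutation p = 0.20), and Ddx5 siRNA plus stress differed from stress by -1.30 (SE 0.72, exact permutation p = 0.20).

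**Figure D5:**
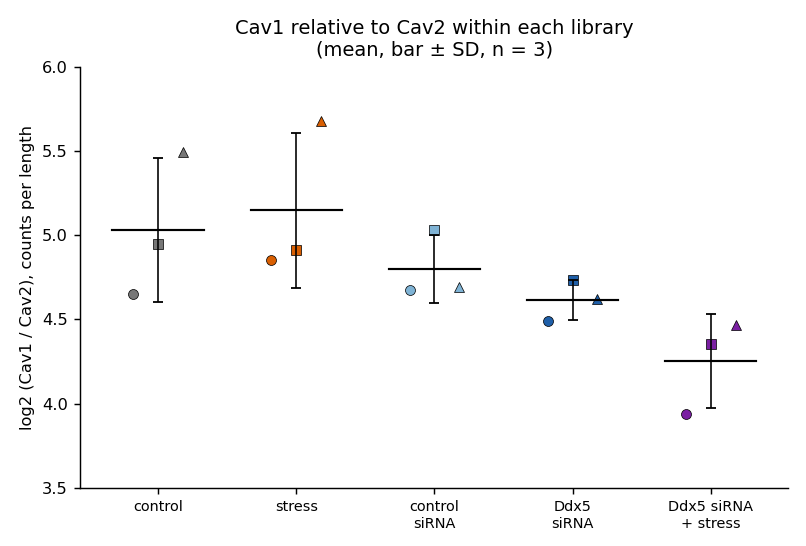
Log2 ratio of Cav1 to Cav2 per length in every library, with the mean and SD of each group of 3. The Ddx5 siRNA plus stress libraries, from 3.94 to 4.46, lie below all other libraries.

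The Ddx5 siRNA gave no call for any of the 6 tested genes. Against the control siRNA, Cav1 was 0.31 higher on the log2 scale (SE 0.11, edgeR adjusted p = 0.199) and its groups did not overlap, while Trpv4 was -0.66 (SE 0.38, adjusted p = 0.427) and Piezo1 -0.08 (SE 0.14, adjusted p = 0.821). Over all genes 0.396% were called, and this background of 56 genes was unstable: it was 645 without Ddx5 siRNA replicate 1 and 1 or 2 without any other single library, with no member called in any of these fits. Under stress, where 0.0283% were called, the differences were 0.10 for Piezo1 (SE 0.14) and -0.01 for Cav1 (SE 0.11). This last comparison sets cells with an siRNA against cells without one, so the siRNA itself and the loss of Ddx5 cannot be told apart. A p that misses the threshold does not show that the levels were alike.

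Of 76 further genes that belong to the same processes, 75 were in the table and 65 were tested. Among other mechanically or volume-gated channels, 17 were tested. Lrrc8d, a subunit of the volume-regulated anion channel, rose with stress from 29.3 ± 1.38 to 43.1 ± 5.19 CPM (SD, n = 3), by 0.56 (edgeR adjusted p = 0.0416), and was the 1 of 65 called there (1.54%, against 1.41% of all genes). In the mean of both stress effects, 3 of 65 were called (4.62%), a share below the 5.56% of all genes. Lrrc8d rose by 0.46 (edgeR adjusted p = 0.00715), Lrrc8c, its relative in the same channel, by 0.52 (0.0321), and Kcnk10, a stretch-sensitive potassium channel, by 1.83 (0.048) at under 1 CPM. Of these only Lrrc8d held its call in every alternative run for the mean effect. Lrrc8d lost its call for stress against control without any control library or without stress replicate 1 or 2 (0.0859 to 0.158). It also lost that call with upper-quartile scaling (0.054) and with only the groups compared (0.063). For the mean effect, Lrrc8c lost its call without 8 of the 12 libraries (0.0567 to 0.0894), and Kcnk10 without 10 (0.0711 to 0.142). Both also lost it with only the groups compared (0.0684 and 0.0521). Lrrc8c did so with the gene-length trend removed (0.0659), and Kcnk10 with no filter (0.0732) and with upper-quartile scaling.

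The remaining lists held no call for stress in either background or for their mean. For stress against control, 14 of the 17 other channels had a log2 fold change above 0, with a median of 0.20, where the median of all 14147 genes was -0.0030. The 14 tested genes of the caveola coat and membrane remodelling had a median of 0.02, with 8 above 0. The median was 0.04 over 5 Piezo partners, 0.03 over 13 polycystin and cilium genes, and -0.02 over 16 genes of calcium entry and calcineurin signalling. With the Ddx5 siRNA present, the median was 0.05 for the other channels and -0.11 for the caveola coat, of which 3 of 14 lay above 0.

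With the control siRNA, 7 of the 65 were called (10.8%, against 3.87% of all genes), 4 higher and 3 lower than the control. Tmem120a, proposed as a partner of Piezo channels, rose by 0.48 (edgeR adjusted p = 0.0158). Lrrc8d rose by 0.71 (0.0074), Trpm4 by 0.46 (0.043) and Prkcsh, a glucosidase subunit needed to mature polycystins, by 0.56 (0.0466). Cavin1, the coat protein that works with caveolin-1 and is listed in the table as Ptrf, fell by 0.42 (edgeR adjusted p = 0.0287). Trpm7 fell by 0.46 (0.0336) and Bicc1, an RNA-binding protein whose loss gives cystic kidneys in mice, by 0.57 (0.00142). Bicc1 was also the only one called with the Ddx5 siRNA, where it rose by 0.42 over the control siRNA (edgeR adjusted p = 0.0431); against the control without siRNA the value was -0.15. That call for the Ddx5 siRNA ended without Ddx5 siRNA replicate 2 or 3 or any control siRNA library (0.133 to 0.234), and with the gene-length trend removed (0.103). It also ended with no filter on low counts (0.0554) and with only the groups compared in the fit (0.0731, and 0.196 with the replicate block). Lrrc8d and Bicc1 kept their calls for the control siRNA with any library left out. The other 5 lost theirs without control replicate 1 (0.0636 to 0.127), and each also without at least 2 of the control siRNA libraries (0.0607 to 0.181). Trpm4 also lost its call with no filter on low counts (0.0592).

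Genes with the pattern most like each member were ranked by the root mean square difference in centred log2 CPM over the 15 libraries, among 10515 candidates. Atxn2l came closest to Piezo1 at 0.11, followed by Nfe2l1 and R3hdm2, where the median candidate was at 0.39. Tln1, which encodes the adhesion protein talin, came closest to Pkd1 at 0.070, before Plxnb2 and Ncoa6. Wwc2, Abi1 and Dopey1 were nearest to Pkd2, with Wwc2 at 0.084. Mtmr6, Mier3 and Htatsf1 were nearest to Cav1, with Mtmr6 at 0.13. Clmp led for Trpv4 at 0.21, with Trim7 and Cebpb next, and F3 led for Cav2 at 0.25, with Cystm1 and Crebzf next. Among the members, Piezo1 and Pkd1 were the closest pair at 0.19. The 15 points share their libraries and depth, and both genes are long, at 8203 and 13813 bases.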

How the data were processed

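The authors deposited raw read counts per gene for 15 libraries, with gene names, positions and exonic lengths. They also deposited FPKM, which equal count over length and 1 number per library (largest relative deviation 4.2e-14). The sources used here do not give the aligner, counter, strandedness or genome build, so reads shared between paralogs or overlapping genes cannot be told apart, and deposited coordinates carry no build. RNA was extracted with Trizol, per the labels' protocols. The members and gene lists were chosen with earlier results of these data known.

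Counts were filtered with filterByExpr by group, scaled by TMM, and fitted with edgeR 4.0.16 (R 4.3.3) over all 15 libraries with a term for group and robust quasi-likelihood estimation. Benjamini-Hochberg adjustment of p-values covered 14147 genes, with calls under 0.05. The biological coefficient of variation was 0.217. Of 33717 genes, 12068 had no count. The fit was tested on simulated data. DESeq2 1.42.0, other scalings, no filter, the replicate block, left-out libraries and, added after the data were seen, a gene-length correction were alternatives. FPKM compared levels between genes; within-library ratios (pseudocount 0.5 counts) used exact permutation (scipy 1.17.1).

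Replicates of a group differed by more than sampling noise (chi-square over its degrees of freedom from 8.04 to 67.7), and none was treated as a repeat deposit. Deviations of same-numbered libraries correlated at 0.274 to 0.395 for stress against control and 0.252 to 0.589 with the Ddx5 siRNA, all over 0.1, so these numbers were taken as pairs. This did not hold for the other comparisons. The named genes were the 7 members, called genes of the lists (up to 4 a list and comparison), Ddx5, the 3 genes most like each member with at least 2 CPM, and the highest and the undetected marker of each cell type list. The highest not named above were Fabp4 (adipocyte, mean 0.716 CPM), Cd14 (leukocyte, 24.8 CPM) and Tubb3 (neuron, 9.52 CPM). Tubb3 rose by 0.84 with the control siRNA (edgeR adjusted p = 0.0145). Col2a1, Sox9, Cnmd and Prg4 were named after their values were seen. Promoters came from RefSeq (GRCr8) and matched 6 of the 7 members.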

Additional observations from a re-analysis of the deposited data

How the results depend on the processing

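The mean stress effect on Piezo1 and on Cav1 kept direction and call in all 21 alternatives run. Calls among the 6 tested genes are given with the share or number of all genes called. For stress against control 2 passed (1.41%). This was 1 with only the groups compared (202 genes) and 4 with the replicate block and only the groups compared (12.5%). With a library left out it was 0 to 2 (81 to 157 genes). For the mean effect 2 passed (5.56%), and 2 to 3 with a library left out (457 to 1029 genes). In cells with the Ddx5 siRNA none passed (1.19%). This was 1 with the replicate block and all libraries (1.77%), and 2 with the block and only the groups compared (7.3%). It was 1 in DESeq2 (369 genes) and 1 with the gene-length correction and the block (252 genes). For the control siRNA, 2 passed (3.87%), and 0 to 2 with a library left out (166 to 392 genes). Pkd2 made it 3 with only the groups compared (adjusted p = 0.0143, 1394 genes). The same held with the replicate block, both with all libraries (0.012, 1173 genes) and with only the groups compared (0.00753, 1570 genes). It held too with the gene-length correction and the block (0.0116, 1141 genes). The replicate numbers did not pair these groups. The block changed no other call of a member in a paired comparison than those given with the results.

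Directions changed as follows, on the log2 scale; the cause was not tested. With the control without siRNA as the reference for the Ddx5 siRNA, Piezo1 was 0.46, Trpv4 0.18, Pkd2 -0.27, Cav1 -0.19 and Bicc1 -0.15. With the gene-length correction, Pkd1 under stress with the Ddx5 siRNA was -0.068 (-0.068 with the block), and Piezo1 for Ddx5 siRNA plus stress against stress -0.024 (-0.026 with the block). With a library left out, values ran from -0.44 to 0.47 for the difference between both stress effects on Trpv4. For the control siRNA they ran from -0.057 to 0.25 for Pkd1 and from -0.55 to 0.037 for Cav2. For Ddx5 siRNA plus stress against stress they ran from -0.26 to 0.65 for Trpv4, -0.19 to 0.095 for Pkd2 and -0.062 to 0.017 for Cav1. For stress with the Ddx5 siRNA they ran from -0.22 to 0.086 for Pkd2 and -0.27 to 0.093 for Cav2. The ratio of Cav1 to Cav2 for stress ran from -0.15 to 0.35, and that of Piezo1 to Piezo2 for the Ddx5 siRNA from -0.23 to 0.29.

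Over all genes, leaving out a library gave 81 to 157 calls for stress against control, 61 to 187 with the Ddx5 siRNA, 457 to 1029 for the mean effect, 0 to 7 for Ddx5 siRNA plus stress and 166 to 392 for the control siRNA, so the shares called are themselves uncertain. In addition, DESeq2 called 547 for stress against control where edgeR called 199, 369 against 169 with the Ddx5 siRNA, 1223 against 786 for the mean effect, 394 against 56 for the Ddx5 siRNA, 158 against 4 for Ddx5 siRNA plus stress, and 1078 against 547 for the control siRNA. With only the groups compared these were 23 for stress with the Ddx5 siRNA, 484 for the mean effect, 0 for Ddx5 siRNA plus stress and 1394 for the control siRNA. With the replicate block and all libraries they were 366 for stress, 417 for the Ddx5 siRNA, 30 for Ddx5 siRNA plus stress and 1173 for the control siRNA. With the block and only the groups compared they were 1683 for stress, 985 with the Ddx5 siRNA, 0 for the Ddx5 siRNA, 1 for Ddx5 siRNA plus stress and 1570 for the control siRNA. For Ddx5 siRNA plus stress the count was 18 with RLE scaling, 16 with no filter and 2 with the gene-length correction. That correction with the block gave 425 for stress, 1200 for the mean effect, 215 for the Ddx5 siRNA, 19 for Ddx5 siRNA plus stress and 1141 for the control siRNA. Depth limits Piezo2 most, at 2 to 11 counts per library, then Trpv4.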
